A study of Mus musculus with 7 samples.

Results

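The collagen gene family was described in mouse liver RNA. Members were taken by name, as every gene whose symbol is Col, a number, the letter a and a number. The rule found 42 genes among the 27810 genes in the table. By the kind of structure their proteins build, 11 were fibrillar collagens, 8 were collagens of basement membranes and 23 were other collagens. All livers came from wild-type (WT) male C57BL/6j mice that were started at 5 weeks of age on a diet that the labels call WD, holding 40% fat, 20% fructose and 2% cholesterol and used as a model of NASH, a fatty liver disease with inflammation. After 32 weeks of feeding, mice were given 1 tail-vein injection, with livers collected after 40 weeks. The MSC group (3 libraries, replicates 0, 1 and 2) received hUC-MSCs, mesenchymal stromal cells from human umbilical cord. A single library, replicate 6, came from a vehicle liver whose label adds the word Cancer, and it was kept as a group of 1. The vehicle group (3 libraries, replicates 1, 3 and 4) received PBS, a saline buffer. The labels do not say what Cancer refers to in the sampled tissue. They also do not state that the libraries of a group are from different animals. A p-value here therefore sets a group difference against the spread among these libraries only. All groups shared the diet, and livers from mice on another diet were not analysed here.

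Collagens are extracellular proteins whose chains wind around each other in threes to form a rigid triple helix. The helix needs a glycine, the smallest amino acid, at the head of each Gly-X-Y repeat. Fibrillar types I and III build the scar of a fibrotic liver and are made there chiefly by activated stellate cells and portal fibroblasts, while type IV forms the sheet-like mesh of basement membranes around vessels and bile ducts. Type VI forms beaded filaments, fibril-associated collagens decorate the surface of fibrils, and types XV and XVIII carry glycosaminoglycan chains at basement membranes.

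The repeat that defines the family can be read in the genes themselves. Short coding sequences from the 3 leading scar collagens stand here beside sequences from a pair of type IV chains, because they show how the classes differ. Glycine codons (GG followed by any base, in the reading frame) are in capitals, and in the repeat they open each Gly-X-Y triplet. Sequences and exons are those of the GENCODE annotation of GRCm38. The first 3 are whole coding exons, from Col1a1 (chr11:94939904-94939957, plus strand), Col1a2 (chr6:4515481-4515534, plus strand) and Col3a1 (chr1:45325360-45325413, plus strand). The other sequences start inside the helix and run through the first break of the repeat that follows a run of 40 triplets. They come from Col4a1 (chr8:11244525-11245066, minus strand) and Col4a5 (chrX:141576404-141578716, plus strand), and each spans 1 exon boundary, so the bases are spliced.
Col1a1: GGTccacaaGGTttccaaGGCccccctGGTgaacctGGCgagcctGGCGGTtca
Col1a2: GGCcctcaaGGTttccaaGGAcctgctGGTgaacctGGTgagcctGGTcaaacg
Col3a1: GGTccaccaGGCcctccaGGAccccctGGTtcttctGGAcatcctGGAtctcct
Col4a1: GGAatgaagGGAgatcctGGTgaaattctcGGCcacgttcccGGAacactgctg
Col4a5: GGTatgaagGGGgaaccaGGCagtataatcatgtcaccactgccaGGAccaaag
The 3 fibrillar exons are 54 bases long and open on a glycine codon at each of 6 triplets. The last triplet of the Col1a1 exon holds a further glycine codon. In the type IV sequences the glycine codons lose their regular spacing part of the way along. Over the whole coding sequences, the longest unbroken run of such triplets ranged from 216 to 344 in the 11 fibrillar genes (median 338), from 30 to 66 in the 8 basement membrane genes (median 41) and from 28 to 113 in the 23 other genes (median 52). Exons of exactly 54 bases made up 47.0% of the coding exons of fibrillar genes (305 of 649), 4.24% of those of basement membrane genes (16 of 377) and 13.3% of those of other genes (120 of 903). The plot of repeat structure shows the fibrillar genes apart from both other classes in run length, while the share of 54-base exons in Col9a2 and Col9a3, cartilage collagens of the other class, lay among those of the fibrillar genes. These counts describe the annotation and do not depend on the liver data.

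**Figure D1:**
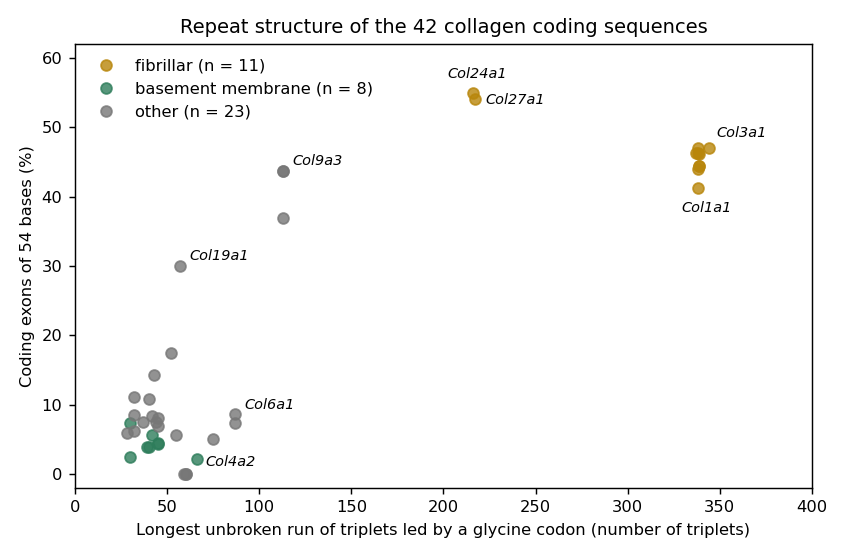
Each point is 1 of the 42 collagen genes, placed by its longest unbroken run of triplets led by a glycine codon (x axis, number of triplets) and by the percentage of its coding exons that are 54 bases long (y axis), and coloured by class. The fibrillar genes lie at runs of 216 to 344 triplets, and the basement membrane and other genes at runs of 28 to 113.

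Expression is given in FPKM, a count of sequenced fragments divided by transcript length and library size, so levels of different genes are comparable per length. The depth of the libraries is unknown, because the values could not be turned back into reads. The number of genes at 1 FPKM or more was 9655 to 12041, and the Cancer-labelled library had the largest number. The share of summed FPKM from mitochondrially encoded genes was 36.4% in MSC replicate 1 and 16.5% to 23.3% elsewhere. The livers were checked against 8 hepatocyte markers, whose summed level was 26600.1 to 43848 FPKM in the 7 libraries. In bulk tissue, fewer cells of a type and less RNA per cell cannot be told apart.

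Collagen transcripts were low in these livers apart from those of 1 gene. Of the 42 members, 13 had a mean of at least 1 FPKM over the 7 libraries, 14 had a mean between 0.1 and 1 FPKM, and 15 had a mean under 0.1 FPKM. A total of 25 members reached 1 FPKM in no library, and 12 were listed at 0 in at least 1 library. Col18a1 alone made up 60.1%, 63.0% and 67.4% of the summed collagen FPKM in the MSC libraries, 37.3% in the Cancer-labelled library and 48.2%, 55.2% and 65.0% in the vehicle libraries. Behind it in mean level over the 7 libraries came Col14a1, Col4a1, Col3a1, Col6a1, Col4a2, Col1a1 and Col5a3, with means of 9.47, 9.35, 5.54, 4.48, 3.70, 3.20 and 3.05 FPKM. From Col14a1 on, neighbours in that order differed in mean level by less than the range of either gene over the libraries, as the plot of values by library shows.

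**Figure D2:**
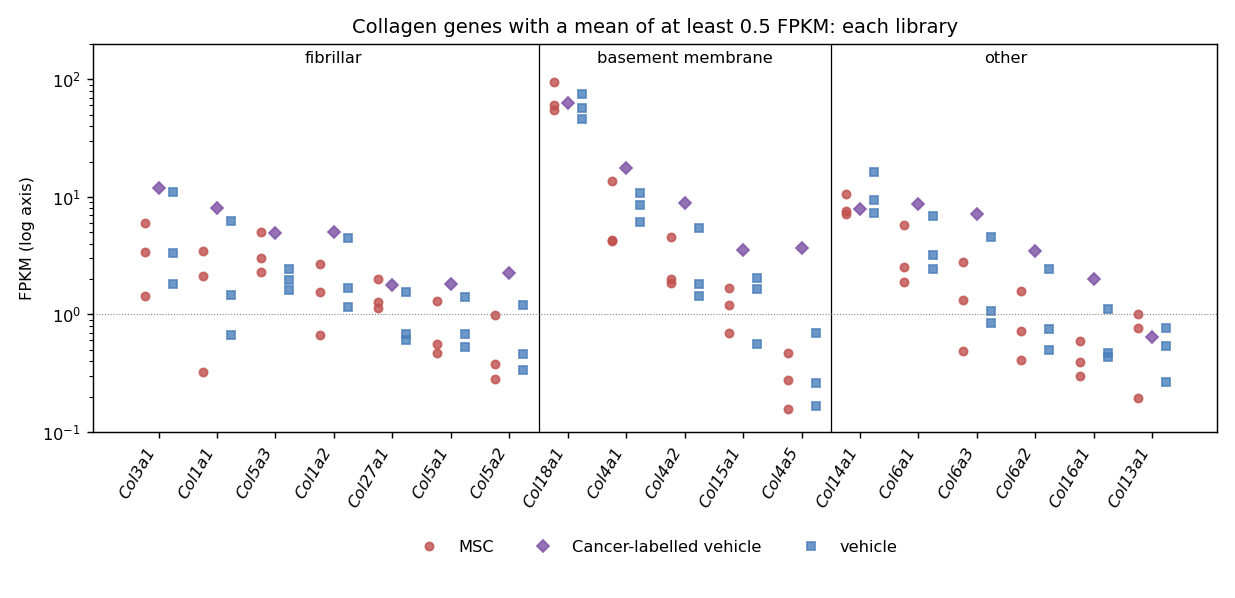
FPKM on a log axis for the 18 collagen genes with a mean of at least 0.5 FPKM over the 7 libraries, arranged by class and then by mean level. Points are single libraries (circles MSC, diamonds Cancer-labelled, squares vehicle), and the dotted line marks 1 FPKM. The MSC and vehicle points overlap for every gene shown, and Col18a1 lies above all other collagens in each library.

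The first comparison asked whether MSC-treated livers differed from vehicle livers in collagen transcripts. No collagen passed the test in either direction. For the main chains of types I, III, IV and VI, the highest library was 1.74 to 10.8 times the lowest within a group, and the ranges of both groups overlapped. The lowest p belonged to Col5a3, a minor fibrillar chain whose MSC mean was 1.73 times its vehicle mean.

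Col1a1 and Col1a2 encode the chains of type I collagen, the main protein of scar, and Col3a1 encodes type III. Col1a1 (chr11:94936224-94953042, plus strand) measured 3.47, 2.13 and 0.321 FPKM in MSC replicates 0, 1 and 2, 8.05 FPKM in the Cancer-labelled library and 6.27, 1.46 and 0.672 FPKM in vehicle replicates 1, 3 and 4. It was lowest in MSC replicate 2 and, among the MSC and vehicle libraries, highest in vehicle replicate 1, and the groups overlapped. The highest Col1a1 value was 10.8 times the lowest among MSC libraries and 9.32 times among vehicle libraries, while the ratio of the MSC mean to the vehicle mean was 0.705. Col1a2 (chr6:4504814-4541544, plus strand) measured 2.66, 1.55 and 0.662 FPKM in the MSC libraries, 5.06 FPKM in the Cancer-labelled library and 4.46, 1.68 and 1.16 FPKM in the vehicle libraries. Col3a1 (chr1:45311538-45349706, plus strand) measured 5.96, 3.41 and 1.44 FPKM in the MSC libraries, 11.8 FPKM in the Cancer-labelled library and 10.95, 3.35 and 1.83 FPKM in the vehicle libraries. For all 3 genes, MSC replicate 0 and vehicle replicate 1 were the highest of their groups and MSC replicate 2 and vehicle replicate 4 the lowest, with the groups overlapping. Type I collagen is usually built from more α1 than α2 chains, and the ratio of Col1a1 to Col1a2 FPKM was 1.30, 1.38 and 0.484 in the MSC libraries, 1.59 in the Cancer-labelled library and 1.41, 0.869 and 0.578 in the vehicle libraries. That ratio was under 1 in MSC replicate 2 and in vehicle replicates 3 and 4. The ratio of Col3a1 to Col1a1 FPKM was 1.72, 1.60 and 4.48 in the MSC libraries, 1.47 in the Cancer-labelled library and 1.75, 2.29 and 2.72 in the vehicle libraries, so type III transcripts exceeded those of Col1a1 in each library.

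Type V chains mix into type I fibrils and limit their width. Col5a3 (chr9:20770050-20815067, minus strand) measured 3.04, 5.06 and 2.31 FPKM in the MSC libraries, 4.93 FPKM in the Cancer-labelled library and 2.43, 1.61 and 1.98 FPKM in the vehicle libraries. The lowest MSC value lay below the highest vehicle value, so the groups overlapped, and the order within the MSC group was led by replicate 1 and not by replicate 0. Col5a1 measured 1.30, 0.469 and 0.557 FPKM in the MSC libraries, 1.83 FPKM in the Cancer-labelled library and 1.42, 0.681 and 0.526 FPKM in the vehicle libraries. Col5a2 measured 0.992, 0.375 and 0.280 FPKM in the MSC libraries, 2.27 FPKM in the Cancer-labelled library and 1.21, 0.460 and 0.338 FPKM in the vehicle libraries. Both were highest in the Cancer-labelled library. Col27a1, a fibrillar collagen of cartilage with a shorter helix, measured 1.99, 1.27 and 1.13 FPKM in the MSC libraries, 1.76 FPKM in the Cancer-labelled library and 1.55, 0.677 and 0.606 FPKM in the vehicle libraries. Its lowest MSC value lay between the values of vehicle replicates 1 and 3. The remaining fibrillar genes, Col11a1, Col11a2, Col2a1 and Col24a1, stayed between 0 and 0.211 FPKM in all 7 libraries. Col2a1 is the main collagen of cartilage.

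Type XVIII collagen, whose C-terminal piece is endostatin, is known to be made by hepatocytes. Col18a1 (chr10:77052178-77166548, minus strand) measured 95.7, 60.2 and 54.8 FPKM in the MSC libraries, 62.4 FPKM in the Cancer-labelled library and 75.6, 45.7 and 56.7 FPKM in the vehicle libraries. The MSC and vehicle values overlapped, and its highest value was 1.75 times its lowest among MSC libraries and 1.66 times among vehicle libraries. Col15a1, its relative in vessel and muscle basement membranes, measured 1.68, 0.698 and 1.20 FPKM in the MSC libraries, 3.55 FPKM in the Cancer-labelled library and 2.03, 0.565 and 1.66 FPKM in the vehicle libraries. Col4a1 and Col4a2 encode the chains of the type IV mesh found in most basement membranes. Col4a1 (chr8:11198423-11312826, minus strand) measured 13.8, 4.33 and 4.17 FPKM in the MSC libraries, 17.8 FPKM in the Cancer-labelled library and 10.8, 8.45 and 6.17 FPKM in the vehicle libraries. Col4a2 (chr8:11312805-11449287, plus strand) measured 4.56, 2.01 and 1.85 FPKM in the MSC libraries, 8.84 FPKM in the Cancer-labelled library and 5.43, 1.43 and 1.80 FPKM in the vehicle libraries. MSC replicate 0 was well above the other MSC libraries for both genes, and vehicle replicate 1 led the vehicle libraries. The ratio of Col4a1 to Col4a2 FPKM was 3.02, 2.15 and 2.25 in the MSC libraries, 2.01 in the Cancer-labelled library and 1.98, 5.90 and 3.43 in the vehicle libraries. The annotated starts of these genes face away from each other and overlap, 21 bases apart, and with strand handling not stated, reads in the shared stretch cannot be told apart.

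Among the other collagens, Col14a1, a fibril-associated collagen, led. Col14a1 (chr15:55307750-55520803, plus strand) measured 10.6, 7.22 and 7.56 FPKM in the MSC libraries, 7.90 FPKM in the Cancer-labelled library and 16.3, 9.36 and 7.28 FPKM in the vehicle libraries. Its highest value was in vehicle replicate 1, and its Cancer-labelled value lay inside both groups. The chains of type VI collagen followed. Col6a1 (chr10:76708792-76726168, minus strand) measured 5.73, 2.53 and 1.88 FPKM in the MSC libraries, 8.68 FPKM in the Cancer-labelled library and 6.94, 3.20 and 2.43 FPKM in the vehicle libraries. Col6a3 (chr1:90765923-90843971, minus strand) measured 2.82, 1.32 and 0.486 FPKM in the MSC libraries, 7.18 FPKM in the Cancer-labelled library and 4.56, 1.08 and 0.8505 FPKM in the vehicle libraries. Col6a2 measured 1.58, 0.721 and 0.412 FPKM in the MSC libraries, 3.48 FPKM in the Cancer-labelled library and 2.42, 0.757 and 0.496 FPKM in the vehicle libraries. For all 3 genes the Cancer-labelled library was the highest of the 7, and vehicle replicate 1 stood above the other vehicle libraries. Summed over the 6 type VI genes, the level was 5.92 ± 3.87 FPKM in MSC libraries, 20.7 FPKM in the Cancer-labelled library and 7.68 ± 5.50 FPKM in vehicle libraries (SD, n = 3 in the MSC and vehicle groups).

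At lower levels, Col16a1, also fibril-associated, measured 0.593, 0.396 and 0.298 FPKM in the MSC libraries, 2.01 FPKM in the Cancer-labelled library and 1.10, 0.474 and 0.434 FPKM in the vehicle libraries. Col13a1, a transmembrane collagen, measured 0.998, 0.196 and 0.771 FPKM in the MSC libraries, 0.647 FPKM in the Cancer-labelled library and 0.541, 0.265 and 0.762 FPKM in the vehicle libraries. It was lowest in MSC replicate 1 and vehicle replicate 3. There the summed level of 6 sinusoidal endothelial markers was also lowest, at 7.77 and 12.6 FPKM against 23.4 to 49.8 FPKM in the other 5 libraries. The sum of 6 macrophage markers was lowest there too, at 18.2 and 29.4 FPKM against 45.6 to 66.4 FPKM in the other 5. Of these markers only Adgre1 and Csf1r followed the sum. Trem2 and Gpnmb were lowest in MSC replicate 2, and Cd68 was lower in that library than in vehicle replicate 3. Clec4f was lower in the Cancer-labelled library than in vehicle replicate 3. The part of either kind of cell in the result was not tested. Col12a1, a fibril-associated collagen of tendon and stressed tissue, measured 0.148, 0.290 and 0.0743 FPKM in the MSC libraries, 0.364 FPKM in the Cancer-labelled library and 0.304, 0.233 and 0.163 FPKM in the vehicle libraries. Col6a6, a rare type VI chain, measured 0.0991, 0.0706 and 0.0684 FPKM in the MSC libraries, 0.922 FPKM in the Cancer-labelled library and 0.0338, 0.0492 and 0.141 FPKM in the vehicle libraries. Col6a6 stood apart in the Cancer-labelled library and was under 0.15 FPKM in the others. The other 15 members of this class stayed at or under 0.431 FPKM in all libraries. They include Col7a1 of anchoring fibrils, Col10a1 of growth plates, the Col9 genes of cartilage and Col17a1 of epithelial anchors, and 12 members of the class had a mean under 0.1 FPKM.

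For the test of MSC against vehicle, 10534 genes with at least 1 FPKM in 3 of the 6 libraries entered limma, fitted on log2(FPKM + 1), a scale that understates the change of low genes. Of the 42 collagens, 12 passed this filter on low values: 5 fibrillar, 4 of basement membranes and 3 others. None of the 12 was called in either direction at a Benjamini-Hochberg adjusted p under 0.05, where 0.0190% of all genes tested were called (0.00949% higher and 0.00949% lower), and none had an unadjusted p under 0.05, against 5.59% of all genes tested (1.45% in the higher direction). The groups overlapped for each of the 12 collagens, while they did not overlap for 10.0% of all genes tested. In limma, Col5a3 differed by 0.53 ± 0.24 (log2, SE), with an adjusted p of 0.908. Col1a1 differed by -0.23 ± 0.58, Col1a2 by -0.34 ± 0.39 and Col3a1 by -0.33 ± 0.54. Col27a1 differed by 0.36 ± 0.23. Among basement membrane genes, Col18a1 differed by 0.23 ± 0.28, Col4a1 by -0.32 ± 0.40, Col4a2 by 0.04 ± 0.39 and Col15a1 by -0.11 ± 0.28. Among the others, Col14a1 differed by -0.29 ± 0.28, Col6a1 by -0.25 ± 0.38 and Col6a3 by -0.23 ± 0.46. Except for Col5a3, adjusted p was 0.995 to 0.999 for these genes, and standard errors of 0.23 to 0.58 leave room for changes in either direction.

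The median log2 difference was -0.23 for the 5 fibrillar genes tested, -0.03 for the 4 basement membrane genes and -0.25 for the 3 others, beside -0.05 for all genes tested. A negative difference was found for 8 of the 12 collagens and for 60.1% of all genes tested, and a positive one for 4 of the 12 and for 39.9% of all genes tested. Summed over whole classes, fibrillar collagens came to 13.6 ± 6.40 FPKM in MSC libraries and 15.3 ± 11.5 FPKM in vehicle libraries. Basement membrane collagens came to 82.1 ± 29.8 FPKM in MSC libraries and 72.7 ± 19.9 FPKM in vehicle libraries. Other collagens came to 16.2 ± 6.06 FPKM in MSC libraries and 20.8 ± 10.8 FPKM in vehicle libraries (SD, n = 3 each). The differences between the means were smaller than the SD of either group for each class.

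A single library in each group carried much of this spread. MSC replicate 0 was the highest MSC library for 11 of the 12 tested collagens and for 59.1% of all genes tested, and vehicle replicate 1 was the highest vehicle library for 12 of the 12 and for 58.7% of all genes tested. These libraries also had the highest summed level of 6 bile duct markers in their groups (145, 34.5 and 31.3 FPKM in the MSC libraries, 165, 69.3 and 48.0 FPKM in the vehicle libraries) and of 6 portal fibroblast markers (51.7, 29.2 and 15.0 FPKM in the MSC libraries, 39.6, 21.3 and 24.6 FPKM in the vehicle libraries). Spp1 alone held 139 FPKM of the bile duct sum in MSC replicate 0 and 158 FPKM in vehicle replicate 1. Gas6 held 45.2 and 32.5 FPKM of the portal fibroblast sums there. Sox9 and Entpd2 were instead highest in MSC replicate 1 among MSC libraries, and Thy1 was lowest in vehicle replicate 1 among vehicle libraries. The other markers of these lists followed the sums. MSC replicate 0 and vehicle replicate 1 were also the highest of their groups for the summed hepatocyte, stellate cell and sinusoidal endothelial markers. Alb held 28892 FPKM of the hepatocyte sum in MSC replicate 0 and 21069 FPKM in vehicle replicate 1. Hpx, Fgb and Serpina1c were lowest in vehicle replicate 1 among vehicle libraries, and Apoa1 and Ttr in MSC replicate 0 among MSC libraries. Of the stellate markers, Rgs5 was lowest in vehicle replicate 1 and Hand2 in MSC replicate 0 of their groups. Des led in neither of these libraries, and Cps1, Colec11 and Clec4g did not lead in both. The myofibroblast and smooth muscle sum was instead higher in MSC replicate 1 (12.1 FPKM) than in MSC replicate 0 (11.4 FPKM). The macrophage sum was higher in vehicle replicate 4 (66.4 FPKM) than in vehicle replicate 1 (57.1 FPKM). The part of any of these cells in the result was not tested. Without vehicle replicate 1 the fibrillar median changed to 0.38 and that of the other collagens to 0.11. Without MSC replicate 0 they changed to -0.61 and -0.58. Without MSC replicate 2 these medians were 0.27 and 0.0052, and no collagen was called when any 1 of the 6 libraries was left out.

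**Figure D3:**
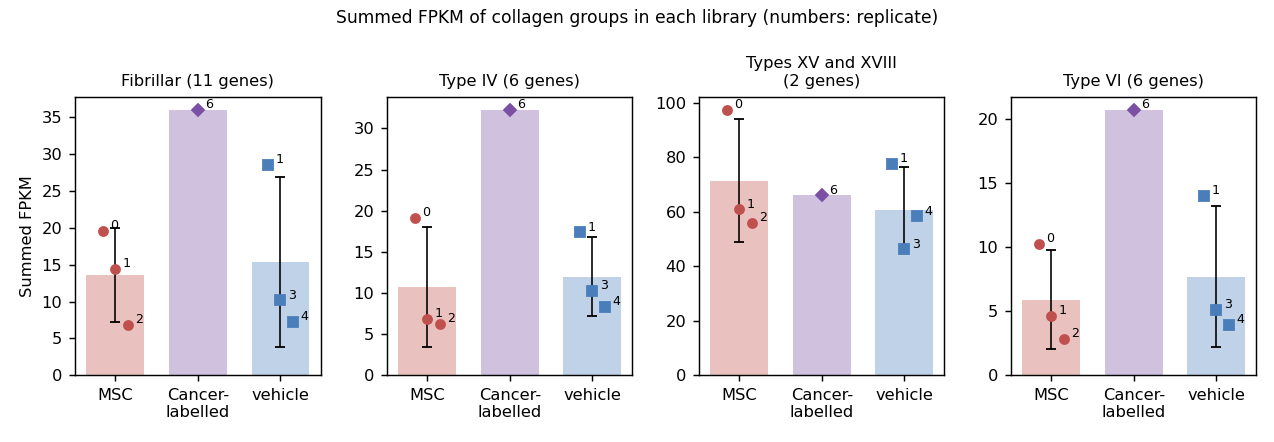
Summed FPKM of the 11 fibrillar genes, the 6 type IV genes, the 2 genes of types XV and XVIII and the 6 type VI genes in each library. Bars are group means, error bars are SD over 3 libraries (the Cancer-labelled library has none), and numbers beside points are replicates. The MSC and vehicle points overlap in each panel, and the Cancer-labelled library lies above all of them except for types XV and XVIII.

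The second comparison set the Cancer-labelled library against the 3 vehicle libraries. Col4a5, a type IV chain of specialised basement membranes, was called higher, at 9.88 times the vehicle mean, but it entered the test only through its value in this library, and the call is lost with a pseudocount of 0.1. Most other collagens also had higher values in this library: fibrillar genes summed to 36.0 FPKM in it and 15.3 ± 11.5 FPKM in vehicle libraries, and type IV genes to 32.2 FPKM in it and 12.0 ± 4.76 FPKM in vehicle libraries (SD, n = 3). Types XV and XVIII together came to 66.0 FPKM in the Cancer-labelled library and 60.7 ± 15.8 FPKM in vehicle libraries. With a single library the comparison has no replicate on 1 side, and the fit assumes that it varies like the others.

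For this comparison 12265 genes entered limma, those with at least 1 FPKM in 3 of the 7 libraries or in the Cancer-labelled one. Of the 42 collagens, 17 passed: 7 fibrillar, 5 of basement membranes and 5 others. Col4a5, Col16a1, Col5a1, Col5a2 and Col6a2 passed only with the Cancer-labelled library counted, so their tests began from a high value there. A total of 1731 genes were admitted in that way, and 367 of them were called higher. Among the 17 collagens 1 was called higher, Col4a5, while 3.98% of all genes tested were called higher, and no collagen was called lower, beside 0.188% of all genes tested. Among the 12 collagens that reached 1 FPKM in 3 of the other 6 libraries, none was called higher in limma, where 1.15% of all such genes were. Unadjusted p-values of the 17 are not set against all genes tested, because some of them entered through their high value in this library.

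Col4a5 (chrX:141475385-141689234, plus strand) measured 0.470, 0.274 and 0.157 FPKM in the MSC libraries, 3.69 FPKM in the Cancer-labelled library and 0.693, 0.260 and 0.166 FPKM in the vehicle libraries. The Cancer-labelled value lay above all 6 others, and no other library reached 1 FPKM. In limma Col4a5 differed by 1.79 ± 0.26 (log2, SE), with an adjusted p of 0.00943. With a pseudocount of 0.1 in place of 1 the adjusted p of Col4a5 was 0.164, which ends the call. Without vehicle replicate 1, 3 collagens were called higher, Col4a5, Col4a2 and Col16a1, while 565 of all genes were, beside 488 with that library kept.

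Differences of the 7 fibrillar genes tested were all positive and none passed the test. Col5a1 and Col5a2 among them entered only through their value in the Cancer-labelled library. Of the untested fibrillar genes, Col24a1 was lowest in that library, at 0 FPKM. Col1a1 differed by 1.54 ± 0.82, with an adjusted p of 0.387 in limma. Col3a1 differed by 1.28 ± 0.76 and Col1a2 by 0.94 ± 0.54. Vehicle replicate 1, with 6.27 FPKM of Col1a1 and 10.95 FPKM of Col3a1, lay closer to the Cancer-labelled library than to the other vehicle libraries. Col5a2 differed by 1.00 ± 0.34, Col5a3 by 0.99 ± 0.34, Col5a1 by 0.62 ± 0.33 and Col27a1 by 0.54 ± 0.32, with adjusted p of 0.174 to 0.430 in limma. In the class of basement membranes, Col4a2 differed by 1.48 ± 0.56, Col4a1 by 1.02 ± 0.56 and Col15a1 by 0.97 ± 0.39, with adjusted p of 0.219 to 0.403 in limma. Col18a1 differed by 0.10 ± 0.39, and this value turned to -0.21 with libraries centred on their medians and to -0.07 without vehicle replicate 3. In the other class, Col6a3 differed by 1.56 ± 0.65, Col6a2 by 1.11 ± 0.47, Col6a1 by 1.00 ± 0.54 and Col16a1 by 0.87 ± 0.26. Col14a1 had the only negative difference, -0.36 ± 0.40, with an adjusted p of 0.685 in limma.

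The median log2 difference was 0.99 for the 7 fibrillar genes tested, 1.02 for the 5 basement membrane genes and 1.00 for the 5 others, beside 0.25 for all genes tested. For the 12 collagens that reached 1 FPKM in 3 of the other 6 libraries the medians were 0.99, 0.99 and 1.00, beside 0.19 for all such genes. Positive differences were found for 16 of the 17 collagens tested and for 77.1% of all genes tested. The Cancer-labelled library lay above all 3 vehicle libraries for 15 of the 17, against 56.2% of all genes tested. It was the highest of the 7 libraries for 13 of the 17, against 46.5% of all genes tested. Those counts include the 5 collagens admitted through this library. The shares of all genes tested likewise include genes admitted in that way, and like shares without them were not counted. Among the other 12 collagens the Cancer-labelled library lay above all 3 vehicle libraries for 10 and was the highest of the 7 for 8. Over all 42 members, low ones included, it was the highest for 28 (66.7%), against 36.0% of all genes in the table, and this held for 6 of the 11 fibrillar, 7 of the 8 basement membrane and 15 of the 23 other collagens. The all-gene median moved from 0.25 to -0.06 with libraries centred on their medians and to 0.42 with mitochondrially encoded genes removed. The plot of fitted differences shows each tested gene beside the all-gene median.

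**Figure D4:**
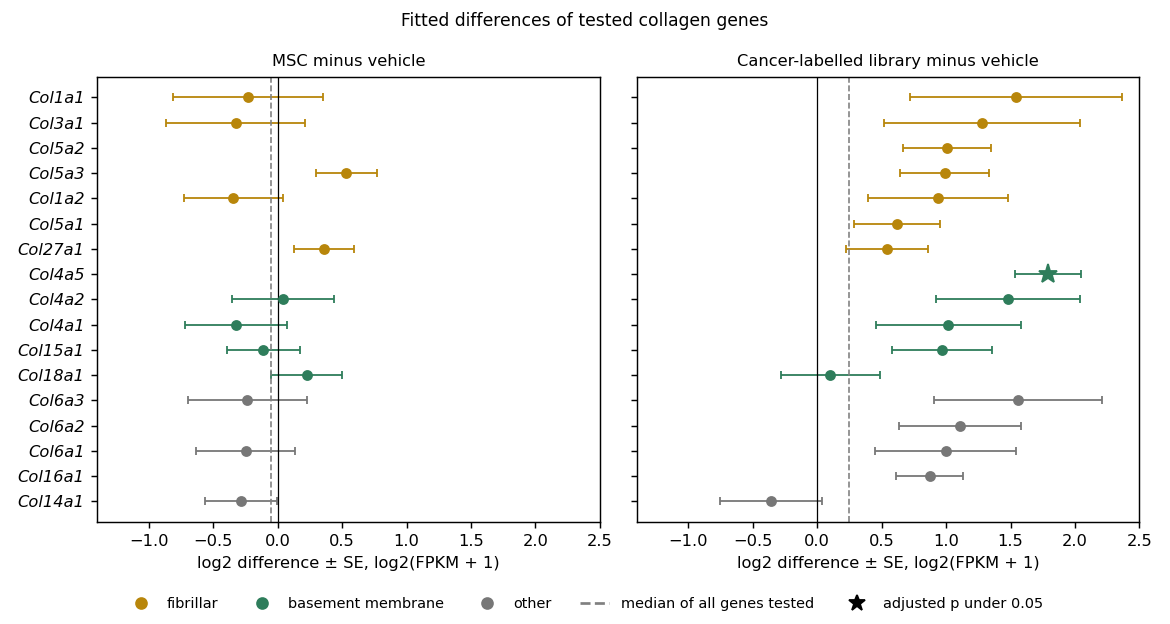
Fitted log2 differences on the log2(FPKM + 1) scale for tested collagens, MSC minus vehicle on the left (12 genes) and the Cancer-labelled library minus vehicle on the right (17 genes). Bars are SE, the dashed line is the median of all genes tested, and a star marks an adjusted p under 0.05, which only Col4a5 has, on the right. Values on the left lie on both sides of 0, and those on the right are above 0 except for Col14a1.

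The type IV genes lie in the genome as 3 pairs that start close together and run in opposite directions, and the pairs held different levels. Starts of Col4a1 and Col4a2 on chromosome 8 were 21 bases apart, those of Col4a3 and Col4a4 on chromosome 1 were 72 bases apart and those of Col4a5 and Col4a6 on chromosome X were 1309 bases apart. Chains of the pairs on chromosomes 1 and X form the mesh of the kidney filter and other specialised basement membranes. Col4a6 measured 0.0536, 0.0478 and 0 FPKM in the MSC libraries, 0.734 FPKM in the Cancer-labelled library and 0.149, 0.0259 and 0.106 FPKM in the vehicle libraries. Col4a3 measured 0.1001, 0.0823 and 0.0460 FPKM in the MSC libraries, 0.673 FPKM in the Cancer-labelled library and 0.107, 0.0627 and 0.0662 FPKM in the vehicle libraries. Col4a4 measured 0.147, 0.0763 and 0.0475 FPKM in the MSC libraries, 0.539 FPKM in the Cancer-labelled library and 0.228, 0.0270 and 0.0371 FPKM in the vehicle libraries. None of these 3 genes reached 1 FPKM in any library, so they did not enter the test, yet each was highest in the Cancer-labelled library, at 7.85, 8.55 and 5.52 times its vehicle mean. By the same ratio Col4a1 stood at 2.099 and Col4a2 at 3.06. With no filter on low values, limma called 6 of the 42 collagens higher in the Cancer-labelled library, where 3.67% of all genes were called higher. They were Col4a3, Col4a5, Col4a6, the rare type VI chains Col6a5 and Col6a6, and Col8a2, a short-chain collagen of the corneal basement membrane, with adjusted p of 0.00316 to 0.0318 in limma.

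The stretch between Col4a5 and Col4a6 is shown in part, because this pair held the gene that was called. The bases just upstream of each start were taken from RefSeq on GRCm38.p6 and are given 5′ to 3′ on the strand of the gene, for Col4a5 at chrX:141475169-141475384 (plus strand) and for Col4a6 at chrX:141474077-141474326 (minus strand). No annotated gene lies in either stretch. Capitals mark the motifs CCAAT in the first and CCGCCC, the reverse complement of GGGCGG, in the second. The Col4a5 stretch ends at 216 bases, before the start in the deposited file, while its RefSeq window of 250 bases runs on and holds GGGCGG in the bases not printed.
Col4a5: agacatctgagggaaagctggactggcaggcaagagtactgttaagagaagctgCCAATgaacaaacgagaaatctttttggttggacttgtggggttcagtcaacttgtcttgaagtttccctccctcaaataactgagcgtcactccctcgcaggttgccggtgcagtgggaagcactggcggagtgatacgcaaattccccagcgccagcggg
Col4a6: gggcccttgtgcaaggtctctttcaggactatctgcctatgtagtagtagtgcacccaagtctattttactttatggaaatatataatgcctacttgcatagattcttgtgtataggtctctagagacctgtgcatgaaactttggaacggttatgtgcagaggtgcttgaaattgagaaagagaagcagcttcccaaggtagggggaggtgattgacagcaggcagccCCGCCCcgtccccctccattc
Windows of 250 bases upstream of a start were available for 35 of the 42 members (38 windows, since a gene may have several starts), and both strands were searched. CCAAT was found in 13 of the 38 collagen windows (34.2%) and in 33.8% of 32851 windows of all genes. GGGCGG was found in 22 of the 38 (57.9%) and in 32.7% of all windows, and TATAAA in 5 of the 38 (13.2%) and in 12.4% of all windows. Windows of neighbouring genes can overlap, and a match describes letters and not a used site.

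Markers of some other cells moved with the collagens in the Cancer-labelled library. The 6 bile duct markers summed to 525 FPKM in it and to 165, 69.3 and 48.0 FPKM in the vehicle libraries, all 6 were above each vehicle library and none was at 0 everywhere. Spp1 held most of these sums, at 453 FPKM in the Cancer-labelled library and 158, 64.7 and 45.1 FPKM in the vehicle libraries. Krt19, Krt7, Cldn4, Sox9 and Epcam were called higher, 5 of 6, beside 3.98% of all genes tested. Only with the Cancer-labelled library counted did 4 of the 6 enter the test, so the share of all genes tested is no match for those. Among the called markers, only Epcam did not depend on that. Krt19, a keratin of bile duct cells, measured 24.4 FPKM in the Cancer-labelled library, against 1.11, 0.868 and 0.991 FPKM in the vehicle libraries. The 6 portal fibroblast markers summed to 89.7 FPKM in the Cancer-labelled library and to 39.6, 21.3 and 24.6 FPKM in the vehicle libraries, and all 6 were above each vehicle library. Gas6 held most of these sums, at 74.4 FPKM in the Cancer-labelled library and 32.5, 17.5 and 21.8 FPKM in the vehicle libraries. The notes that follow concern the whole portal fibroblast list. Of the 6 markers, 4 entered the test only with the Cancer-labelled library counted, and Fbln2, which was called higher, was among them. The 6 markers of myofibroblasts and smooth muscle summed to 19.3 FPKM, against 13.8, 6.74 and 6.87 FPKM in the vehicle libraries, and none passed. The 8 stellate cell markers summed to 55.0 FPKM, inside the vehicle values of 55.6, 54.5 and 46.0 FPKM, and 4 of the 8 lay above each vehicle library. The 6 macrophage markers summed to 55.0 FPKM, inside the vehicle values of 57.1, 29.4 and 66.4 FPKM, and 3 of the 6 lay above each vehicle library. None of either list was called. The stellate markers Reln, at 1.09 FPKM, and Lrat, at 3.21 FPKM, and the macrophage marker Clec4f, at 6.70 FPKM, lay below each vehicle library. The part of these cells in the collagen values was not tested.

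**Figure D5:**
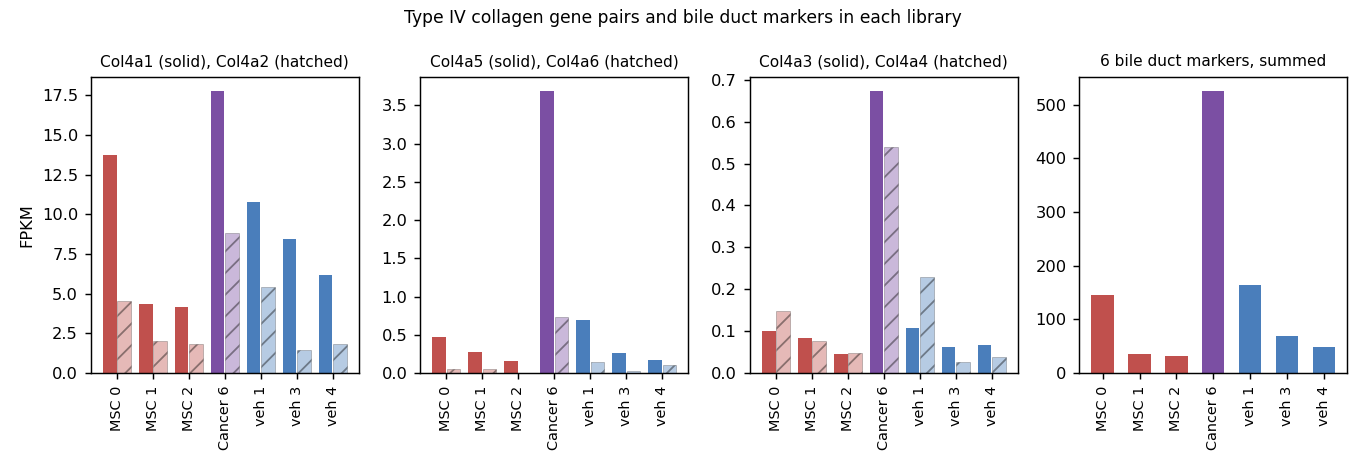
FPKM of the 3 type IV gene pairs (solid and hatched bars, linear axes from 0) and the summed FPKM of 6 bile duct markers in each of the 7 libraries, coloured by group. Each of the 6 genes and the marker sum is highest in the Cancer-labelled library, where Col4a5 is at 3.69 FPKM and the markers at 525 FPKM. Spp1 holds 453 FPKM of that marker sum.

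Genes that fold, cut, crosslink, bind or induce collagen were then examined. Between MSC and vehicle livers, none of the tested members of any list passed in limma, in either direction: 13 of folding and modification, 2 of propeptide removal and crosslinking, 7 of fibril partners, 3 of receptors and 10 of inducing signals. Medians were 0.01, -0.14, -0.20, -0.08 and -0.14 (log2), beside -0.05 for all genes tested. Ppib, cyclophilin B, which turns proline bonds in new collagen chains, measured 53.7, 48.4 and 49.7 FPKM in the MSC libraries, against 33.6, 33.0 and 28.3 FPKM in the vehicle libraries. Ppib groups did not overlap, and its difference was 0.66 ± 0.17 with an adjusted p of 0.580 in limma. Plod1, a lysyl hydroxylase, differed by -0.26 ± 0.16 and P3h1, a prolyl 3-hydroxylase, by 0.27 ± 0.19. Bmp1, which removes the C-terminal propeptide, differed by -0.38 ± 0.23, and Pcolce, its enhancer, by 0.11 ± 0.27.

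All 7 tested fibril partners had negative differences between MSC and vehicle livers, where 60.1% of all genes tested were negative. Dcn, decorin, a proteoglycan that coats fibrils, measured 56.5, 29.7 and 38.6 FPKM in the MSC libraries, against 70.7, 55.6 and 46.9 FPKM in the vehicle libraries. Its groups overlapped, with a difference of -0.49 ± 0.27 and an adjusted p of 0.995 in limma. Bgn, biglycan, differed by -0.39 ± 0.33 and Lum, lumican, by -0.52 ± 0.47. Of the receptors, Ddr2 differed by -0.08 ± 0.18, Itgb1 by -0.12 ± 0.27 and Itga1 by 0.01 ± 0.23. Of the inducing signals, Smad2 differed by -0.22 ± 0.20 and Ccn2 by -0.34 ± 0.30.

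Between the Cancer-labelled and the vehicle livers, 8 members of these lists were called higher and none lower, beside 3.98% and 0.188% of all genes tested. All of these but Ccn2 passed the filter only with the Cancer-labelled library counted, so the share of all genes tested is no match for them. The like set is the 1731 genes admitted in that way, of which a larger share was called higher, as counted with the collagen test above. Inducing signals held 5 of 14: Tgfb2 and Tgfb3, ligands that raise collagen synthesis, Pdgfb, a growth factor for stellate cells, Ccn2, a matricellular target of TGF-β and YAP, and Smad7, an inhibitor of TGF-β signalling. Ccn2 measured 31.1 FPKM in the Cancer-labelled library, against 8.13, 3.30 and 3.48 FPKM in the vehicle libraries, and its difference was 2.52 ± 0.43 with an adjusted p of 0.0176 in limma. Tgfb2 measured 3.92 FPKM in the Cancer-labelled library, against 0.361, 0.144 and 0.0954 FPKM in the vehicle libraries. Tgfb3 measured 6.31 FPKM in the Cancer-labelled library, against 0.820, 0.382 and 0.207 FPKM in the vehicle libraries. Each of these values in the Cancer-labelled library was above all vehicle values. Pdgfb differed by 1.95 ± 0.21 and Smad7 by 0.89 ± 0.20. All 14 signals had positive differences, with a median of 0.85, beside 0.25 for all genes tested. Of the 14, 4 entered only through their value in the Cancer-labelled library, so these signs and this median rest in part on the filter. A median without them was not computed.

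Receptors held 2 of 7 called, with a median of 0.60. Ddr1, a receptor kinase for collagen that epithelial cells carry, measured 11.4 FPKM in the Cancer-labelled library, against 1.59, 0.831 and 0.471 FPKM in the vehicle libraries, with a difference of 2.70 ± 0.44 and an adjusted p of 0.0147 in limma. Itga2, the α2 integrin chain, differed by 1.14 ± 0.20, with an adjusted p of 0.0182 in limma. Folding and modification genes held 1 of 20 called, with a median of 0.52. Plod2, the lysyl hydroxylase of collagen ends, measured 1.94 FPKM in the Cancer-labelled library, against 0.674, 0.382 and 0.242 FPKM in the vehicle libraries, with an adjusted p of 0.0437 in limma. None of 6 genes of propeptide removal and crosslinking was called, with a median of 0.57, and none of 11 fibril partners, with a median of 0.66. Their lowest p-values belonged to Loxl1, a crosslinking enzyme, which differed by 1.33 ± 0.43, Pcolce by 1.17 ± 0.38, Loxl3 by 0.58 ± 0.23, Eln, elastin, by 0.80 ± 0.29, Sparc, a collagen-binding glycoprotein, by 1.28 ± 0.47 and Bgn by 1.17 ± 0.47. Only with the Cancer-labelled library counted did 4 of the 7 receptors and 7 of the 20 folding and modification genes enter. The same held for 4 of the 6 genes of propeptide removal and crosslinking and 4 of the 11 fibril partners. The medians of these lists therefore rest in part on the filter.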

How the data were processed

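Total RNA of mouse liver was sequenced in 7 libraries, and the authors deposited FPKM per gene, 1 column a library, per the file headers. The builds GRCm38 and mm10 and the tools StringTie 2.1.6, HISAT2 2.2.1, FastQC 0.11.9 and cutadapt 1.9 are named, with no roles, in the submitters' processing notes. How strand was treated is not given in the sources. Since FPKM is relative within a library, abundant transcripts lower the rest. No 2 libraries held identical values.

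Collagens were classed by family. The members, lists and tests were chosen with earlier results of these data known. Values were analysed as log2(FPKM + 1), after a filter at 1 FPKM in 3 libraries, with limma 3.58.1 (lmFit, eBayes with trend) in R 4.3.3, adjusting p over all genes tested with Benjamini-Hochberg at a threshold of 0.05. The Cancer-labelled library was compared in a model of 3 groups over all 7 libraries. Steps were tested on simulated data. Values or fitted differences were given for members with the highest means in each class and for called members, and from the other lists called genes, or up to 3 of lowest p, were named in each comparison, some without values; 1 gene that this rule names is not reported here. Coordinates are those of the deposited file, and sequences and codons came from GENCODE and RefSeq, and protein sequences were not used here. Alternatives were the pseudocount, the filter, the scaling, limma's settings and the libraries kept. Tables were read with data.table (release 1.17.8) and pandas 2.3.3, and figures drawn with matplotlib 3.10.9 in Python 3.11.15.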

Additional observations from a re-analysis of the deposited data

How the results depend on the processing

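Depth is unknown, and 25 of the 42 collagens reached 1 FPKM in no library, so differences of low members rest on the pseudocount and the filter. No paired analysis was possible because the labels do not pair MSC libraries with vehicle libraries. Between MSC and vehicle livers, no collagen was called under any of the 19 alternatives, and medians with 1 library left out ranged from -0.62 to 0.38 (fibrillar), -0.27 to 0.25 (basement membrane) and -0.58 to 0.11 (other). Signs of uncalled genes turned, and the cause was not tested. Col4a2 was -0.020 with TPM scaling and -0.33 where the Cancer-labelled liver counted as a vehicle liver. With 1 library left out, the values ranged from -0.68 to 0.38 for Col1a1, -0.62 to 0.050 for Col1a2, -0.78 to 0.26 for Col3a1, -0.61 to 0.11 for Col6a1, -0.58 to 0.27 for Col6a3, -0.52 to 0.015 for Col14a1, -0.40 to 0.080 for Col15a1, -0.015 to 0.41 for Col18a1 and -0.27 to 0.48 for Col4a2. The highest of each came without vehicle replicate 1, and the lowest of Col1a2, Col6a1, Col6a3, Col18a1 and Col4a2 without MSC replicate 0. Leaving out MSC replicate 0 and vehicle replicate 1 together gave 0.00390 for Col1a1. In the Cancer-labelled comparison, collagens called higher numbered 0 with a pseudocount of 0.1 (9 of all genes), 2 with a pseudocount of 5 (816 of all genes), 6 with no filter (1022 of all genes) and 0 with at least 1 FPKM in every library (24 of all genes), which Col4a5 does not reach. They numbered 1 to 3 with 1 library left out. All genes called higher numbered 285 with TPM scaling, 258 with mitochondrially encoded genes removed, 565 without vehicle replicate 1, 255 without vehicle replicate 3 and 263 without vehicle replicate 4, beside 488. The median of the other collagens was 1.56 with a pseudocount of 0.1, 0.13 with no filter and 0.32 with at least 1 FPKM in every library, and that of the fibrillar collagens 0.46 with a pseudocount of 5. With 1 library left out, medians ranged from 0.83 to 1.22 (fibrillar), 1.02 to 1.19 (basement membrane) and 0.77 to 1.35 (other). Col18a1 was -0.21 with libraries centred on their medians and, with 1 library left out, -0.068 (vehicle replicate 3) to 0.29 (vehicle replicate 1).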
